A study of Drosophila melanogaster with 9 samples.

Results

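The yolk protein genes Yp1, Yp2 and Yp3 and the sex-biased fat body genes fit and to (takeout) were followed across 9 libraries of poly(A) RNA from heads of adult female Drosophila melanogaster. The genes were chosen by name, with earlier results of these data known. They were 5 of 17558 genes with counts, and all 5 had enough reads to enter the test. The gene fit did so only where the heterozygous libraries, in which its mean was highest, were counted. The libraries formed 3 groups of 3, all from flies aged 1 to 2 days and kept at 25 °C and 60% humidity. The groups were a control, heterozygotes for Ime4 and homozygotes for Ime4, the gene of the methyltransferase that places m6A on messenger RNA. The labels give neither the allele nor the genetic background of the control flies. Whether libraries of one group came from separate fly cultures is not stated in the labels, so p-values measure only the spread between these libraries.

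Yolk proteins are secreted by the female fat body and by the follicle cells of the ovary and are taken up by the growing oocyte through the receptor Yolkless. They belong to the lipase family in sequence but are not known to act as lipases, and their genes are switched on in females and off in males by the sex-specific forms of Doublesex, with further control by ecdysone, juvenile hormone and feeding. The fat body inside the head is a source of these transcripts in whole-head RNA. The product of fit (female-specific independent of transformer) is a small secreted peptide of the fat body tied to satiety after protein meals, and takeout, a relative of juvenile hormone binding proteins, is male-biased in the head fat body and tied to the clock, feeding and courtship.

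On assembly BDGP6, Yp1 (FBgn0004045, X 10053811 to 10055498, plus strand, 2 exons) and Yp2 (FBgn0005391, X 10050951 to 10052636, minus strand, 2 exons) stood back to back with 1174 bp between their starts. Yp3 (FBgn0004047, X 13759546 to 13761547, plus strand, 3 exons) lay elsewhere on the same chromosome. Their annotated proteins had 439, 442 and 420 residues. The single-exon gene fit (FBgn0038914, 3R 21883924 to 21884454, minus strand) had a coding sequence of 121 codons, and to (FBgn0039298, 3R 25240180 to 25241668, plus strand, 4 exons) one of 249. An antisense RNA on the minus strand, asRNA:CR45601, lay with all 875 of its exon bases inside Yp1 exons and covered 54.3% of them. It was counted with 350 to 1020 reads, equal to 5.02% to 9.22% of the Yp1 reads of the same library. No source used here names the strand setting. On this annotation none of its exon bases lay outside Yp1, so a count blind to strand could not tell its reads from those of Yp1. Reads that matched more than a single gene were listed apart as ambiguous, so its own reads point to counting by strand. Whether some of them came from Yp1 transcripts was not tested. Of the exon bases of fit, 12.6% were shared with CG31465 on the other strand and 6.03% with asRNA:CR45046.

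Libraries held 2730289 to 4272550 reads in genes, and levels are given as CPM, a gene's reads scaled to its library's total after TMM adjustment. Ime4, annotated as Mettl3, had 17 to 19 reads in each control, 8 to 16 in each heterozygous and 2 or 3 in each homozygous library. It fell by 3.00 ± 0.45 on the log2 scale in homozygous against control flies (SE; edgeR adjusted p = 5.56e-04). Male germline and accessory gland genes (23) summed to at most 3.72 CPM and roX2 had 0 to 2 reads. The other male dosage compensation RNA, roX1, had 38, 41 and 23 reads in control replicates 1 to 3. It had 102, 11 and 94 in the heterozygous and 16, 12 and 10 in the homozygous ones. Neuron and eye genes (14) summed to 28290 to 29760 CPM in the control libraries, 24710 to 26950 in the heterozygous and 21080 to 22720 in the homozygous ones. Reads outside genes were 26.2% to 31.7% of the listed total in control, 19.1% to 28.4% in heterozygous and 17.2% to 20.0% in homozygous libraries.

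Transcripts of other organs stood out in 3 libraries. The ovary list (24 genes) summed to 413 CPM in control replicate 3 and to between 15.6 and 30.7 in the other 8. The oocyte yolk receptor gene yl had 100 reads there and 0 or 1 elsewhere. The summed yolk protein level of control replicate 3 was 3559 CPM, against 3829 and 5258 in the other control libraries, and the part of ovary transcripts in it was not tested. The digestive enzyme list (31 genes) summed to 787 and 923 CPM in homozygous replicates 1 and 2, against 66.4 in homozygous replicate 3 and 19.4 to 80.3 in the 6 other libraries. Results are therefore given with and without these libraries. In RNA from whole heads, fewer cells of a type and less RNA per cell cannot be told apart.

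All 5 genes had higher mean levels in heterozygous than in control heads. In 4 of them, all but Yp1, every heterozygous library stood above every control library, as in 16.1% of all tested genes. Yp2 and to passed the test in this comparison, as did 9.32% of all tested genes. Homozygous means were also above control for all 5 genes, but only to passed the test there, where 19.7% of all tested genes did. Homozygous replicate 3 had the lowest level of all 9 libraries for each of the yolk protein genes. No gene of the 5 differed between homozygous and heterozygous heads by the test, where 5.48% of all tested genes did.

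Yp1 was the most abundant of the 5 genes. Its levels were 2739, 2212 and 1839 CPM in the control libraries (replicates 1 to 3), 2533, 2651 and 4320 in the heterozygous and 3234, 3241 and 1017 in the homozygous ones. Heterozygous replicate 3 was highest and homozygous replicate 3 lowest, and the ranges of all 3 groups overlapped. The log2 fold change was 0.49 ± 0.34 for heterozygous against control (SE; edgeR adjusted p = 0.425) and 0.14 ± 0.34 for homozygous against control (edgeR adjusted p = 0.81).

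Yp2, its divergent neighbour, had 1323, 877 and 977 CPM in the control libraries, 1542, 1777 and 2675 in the heterozygous and 1807, 1894 and 873 in the homozygous ones. Every heterozygous library was above every control library, while the homozygous libraries lay on both sides of control. Yp2 rose in heterozygous flies by 0.92 ± 0.27 on the log2 scale (edgeR adjusted p = 0.0476). That call was lost when any one of the control or heterozygous libraries was left out, with fold changes of 0.66 to 1.11 and edgeR adjusted p between 0.058 and 0.234. In homozygous against control flies the fold change was 0.53 ± 0.27 (edgeR adjusted p = 0.186).

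Yp3 ordered the libraries as Yp2 did, except that homozygous replicates 1 and 2 changed places. It had 1196, 740 and 743 CPM in the control libraries, 1551, 1630 and 2403 in the heterozygous and 1925, 1897 and 654 in the homozygous ones. Heterozygous and control libraries did not overlap, and homozygous replicate 3 was again below all control libraries. The fold changes, 1.06 ± 0.33 for heterozygous and 0.74 ± 0.32 for homozygous flies, stayed short of the threshold (edgeR adjusted p = 0.0572 and 0.125).

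The satiety peptide gene fit was near the lower limit of the test. The control libraries held 8, 6 and 8 reads of it, the heterozygous 16, 14 and 38 and the homozygous 10, 20 and 11. The means were 2.34 ± 0.635, 6.68 ± 4.29 and 3.55 ± 1.77 CPM (SD, n = 3) in the same order. All heterozygous libraries were above all control libraries, most of all replicate 3. The log2 fold changes were 1.51 ± 0.51 and 0.60 ± 0.54 (edgeR adjusted p = 0.0806 and 0.48).

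The takeout gene had 28.6, 18.2 and 8.22 CPM in the control libraries, 41.5, 43.7 and 55.3 in the heterozygous and 51.3, 47.2 and 24.3 in the homozygous ones. All heterozygous libraries were above all control libraries, and only homozygous replicate 3 lay within the control range. It rose in heterozygous flies by 1.38 ± 0.34 (edgeR adjusted p = 0.0227) and in homozygous flies by 1.18 ± 0.34 on the log2 scale (edgeR adjusted p = 0.0272). The first call was lost without control replicate 2 or 3 or without any one heterozygous library, where the fold changes were 1.02 to 1.46 and the edgeR adjusted p reached 0.108. The second was lost without control replicate 2 or 3 or homozygous replicate 1 or 2, where they were 0.82 to 1.19 and the edgeR adjusted p reached 0.1. Without control replicate 3, the library with ovary transcripts and the lowest takeout level, the log2 fold changes were 1.02 and 0.82.

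**Figure D1:**
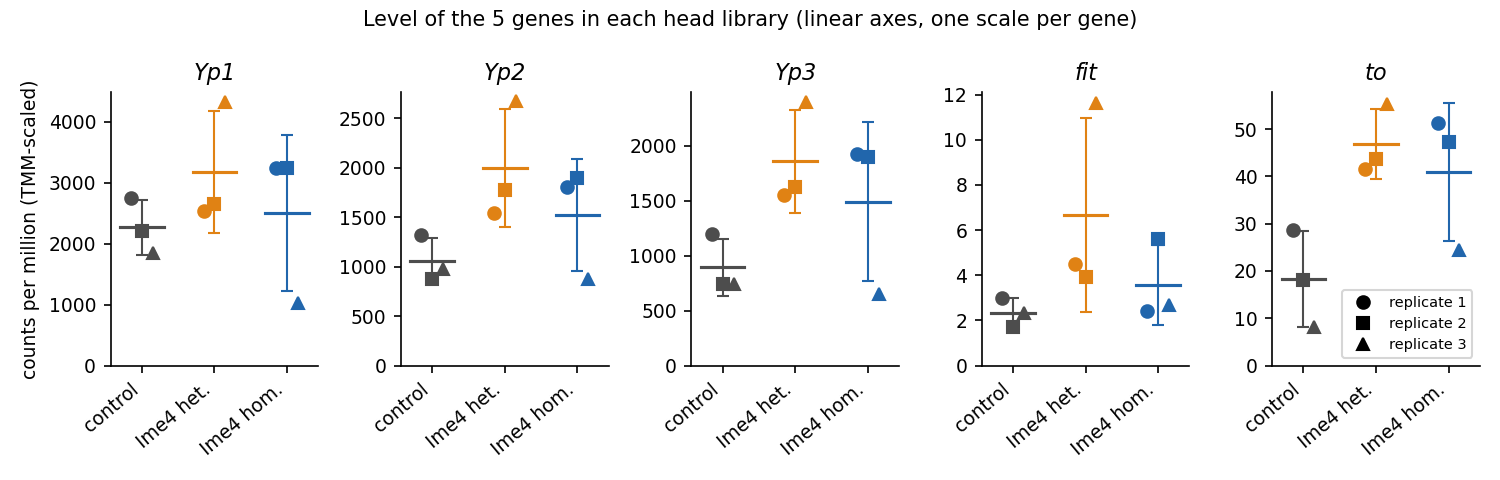
TMM-scaled CPM (linear vertical axes, 1 scale per gene) of Yp1, Yp2, Yp3, fit and to in control, Ime4 heterozygous and Ime4 homozygous female heads; symbols are libraries, horizontal lines group means and bars SD (n = 3). Homozygous replicate 3 (triangle) was lowest of all libraries for Yp1, Yp2 and Yp3, at 1017, 873 and 654 CPM, and heterozygous replicate 3 was highest for all 5 genes.

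Counted together, 2 of the 5 genes were called in heterozygous against control heads, where 9.32% of the 8972 tested genes were called. Of the 5, 4 had all heterozygous libraries above all control libraries, as did 16.1% of tested genes. The median log2 fold change of the 5 was 1.06, against -0.01 over all tested genes. The gene fit, part of this count and median, passed the filter only where the heterozygous libraries were counted. Its high heterozygous level is therefore not separate support for either. The 5 genes were chosen with earlier results of these data known, and Yp2 and Yp3 moved together across the libraries. The counts and medians beside those of all tested genes are therefore a description only. In homozygous against control heads 1 of 5 was called, against 19.7% of tested genes, and the median was 0.60 against 0.02. The share called was close to the background, and none of the 5 had homozygous libraries wholly above control, against 17.9% of tested genes. Homozygous against heterozygous heads gave 0 calls in edgeR, DESeq2 and limma-voom and 0 at an unadjusted p under 0.05, where edgeR called 5.48% of tested genes. The fold changes there were -0.34, -0.39, -0.32, -0.91 and -0.19 for Yp1, Yp2, Yp3, fit and to, with overlapping libraries for each, where 26.0% of tested genes had libraries that did not overlap. Both comparisons with control use the same 3 control libraries.

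The genes varied more between libraries of one group than most genes did. The pooled within-group SD of log2 CPM was 0.63 for Yp1, 0.47 for Yp2, 0.60 for Yp3, 0.59 for fit and 0.62 for to, against a median of 0.23 over tested genes. Between 88.8% and 95.8% of tested genes had a smaller SD. The yolk protein genes were most variable in homozygous flies, at 0.96, 0.63 and 0.89, whereas to was most variable in control flies (0.88) and fit in heterozygous flies (0.79).

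The result for the yolk protein genes in homozygous flies rested on which homozygous libraries were counted. On the log2 scale, homozygous replicate 3 lay below the mean of replicates 1 and 2 by 1.67 for Yp1, 1.08 for Yp2, 1.55 for Yp3, 1.00 for to and 0.40 for fit. A lower gap was found for 0.647% of tested genes in the case of Yp1, 2.25% for Yp2, 0.847% for Yp3, 2.79% for to and 18.3% for fit. For fit, homozygous replicate 3 was not below both of the others. Without this library, 4 of 5 genes were called higher in homozygous than in control flies. Calls over all genes rose too, to 2477 of 9147 tested genes, 1329 of them higher, from 1765 of 8972 with all libraries. The log2 fold changes were then 0.52 for Yp1, 0.81 for Yp2 and 1.10 for Yp3 (edgeR adjusted p = 0.0483, 0.00311 and 2.45e-04). Without replicate 1 or replicate 2 alone, Yp1 lay at -0.11 and -0.10. Without both of them, which carried the digestive transcripts, the yolk protein genes lay at -1.18, -0.30 and -0.47 against control, and Yp1 was called lower (edgeR adjusted p = 0.00692). The takeout gene was then at 0.42 (edgeR adjusted p = 0.542). This fit keeps a single homozygous library, which is assumed to vary like the other groups. The yolk protein level and the digestive transcripts thus moved together within the homozygous group, and the part of one in the other was not tested.

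**Figure D2:**
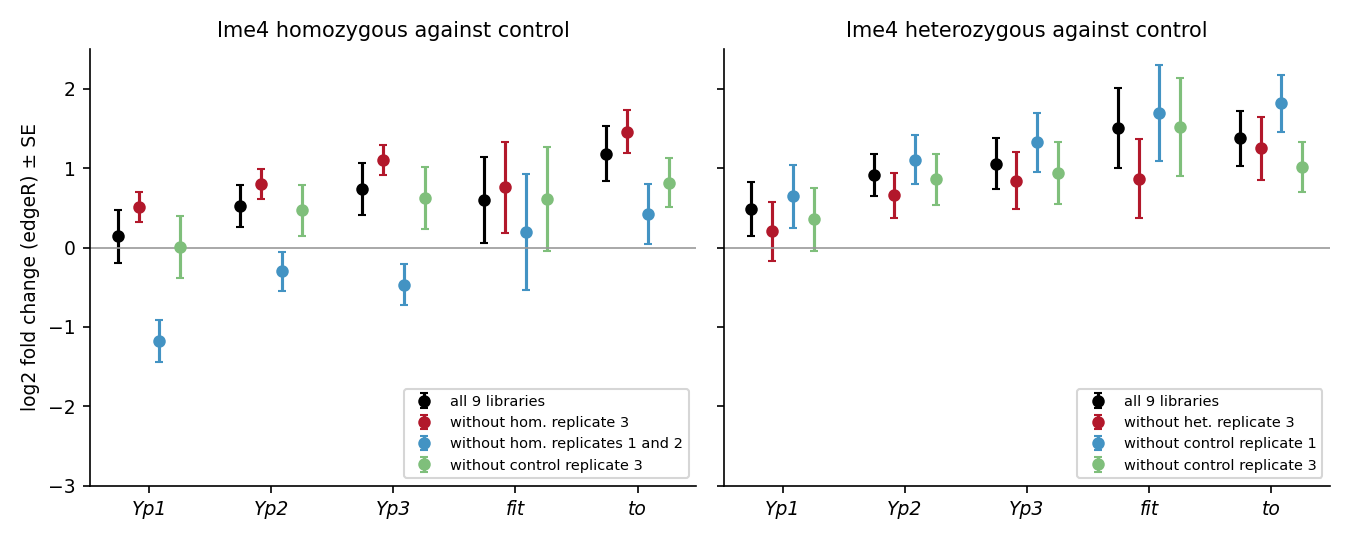
Log2 fold change (edgeR, bars SE) of the 5 genes in homozygous against control (left) and heterozygous against control heads (right), with all 9 libraries and with the libraries named in the key left out. The homozygous values for Yp1 ran from -1.18 without homozygous replicates 1 and 2 to 0.52 without replicate 3, and the heterozygous values stayed above 0 in the fits shown.

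Per kilobase of exon, levels were ordered Yp1, Yp2, Yp3, to and fit in the mean of every group. In control flies these were 1405 ± 281, 655 ± 145, 478 ± 141, 14.6 ± 8.14 and 4.41 ± 1.20 CPM per kb (SD, n = 3). The same order held within every single library. Between libraries, the ranges of Yp2 and Yp3 overlapped in all 3 groups. Those of Yp1 and Yp2 overlapped in heterozygous and homozygous but not in control libraries. The levels of to lay above those of fit in each group without overlap, at 19.4 to 40.9 against 4.51 to 10.5 CPM per kb in homozygous flies.

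Yp1 made up a smaller and Yp3 a larger share of the yolk protein reads in both Ime4 groups than in control. Reads of the 3 genes together made up 0.381% to 0.518% of gene reads in control libraries, 0.56% to 0.899% in the heterozygous and 0.258% to 0.698% in the homozygous ones. Yp1 held 52.1%, 57.8% and 51.7% of these reads in the control libraries, 45.0%, 43.8% and 46.0% in the heterozygous and 46.4%, 46.1% and 39.98% in the homozygous ones. The control libraries lay above all 6 others. The exact binomial 95% interval, which covers counting error only, was 51.3% to 52.9% in control replicate 1 and 45.4% to 46.5% in heterozygous replicate 3. Yp3 moved the other way, with 21.0 ± 1.72% (SD, n = 3) in control flies, 26.7 ± 1.02% in heterozygotes and 26.8 ± 0.983% in homozygotes. Reads of Yp1 per read of Yp3 numbered 2.29, 2.99 and 2.48 in the control libraries, 1.63, 1.63 and 1.798 in the heterozygous and 1.68, 1.71 and 1.56 in the homozygous ones. Homozygous replicate 3, low for each gene, was no exception to this ratio. Both differences from control, -0.90 and -0.94, reached the smallest p that 3 against 3 libraries allow, 0.1 (two-sided exact permutation test), or 0.225 after adjustment over 9 ratio comparisons. The ratios were tested after their values were seen, so they are a description of these libraries. The Yp1 to Yp2 ratio also separated control (1.88 to 2.52) from heterozygous (1.49 to 1.64) and homozygous libraries (1.17 to 1.79), and the Yp3 to Yp2 ratio overlapped in all comparisons. Without control replicate 3 the Yp1 share in control was 54.9%.

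**Figure D3:**
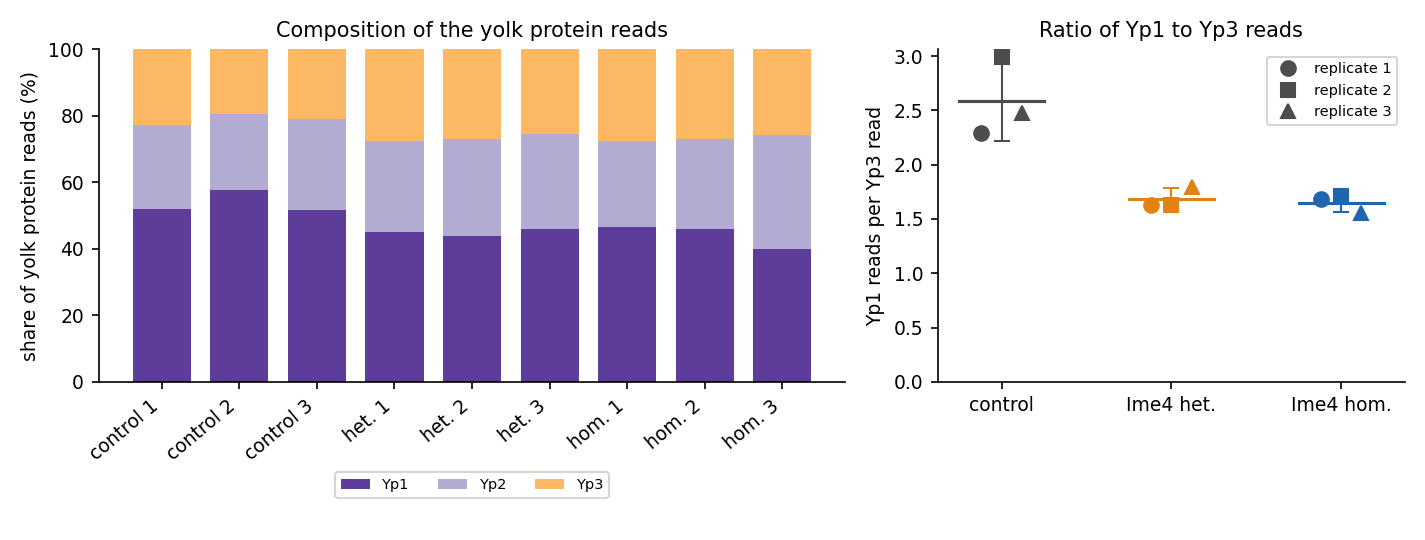
Left, share of yolk protein reads (%) from Yp1, Yp2 and Yp3 in each library; right, Yp1 reads per Yp3 read by group, with symbols for libraries, lines for means and bars for SD (n = 3). Control libraries had 2.29 to 2.99 Yp1 reads per Yp3 read and the 6 Ime4 libraries 1.56 to 1.798.

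Across the 9 libraries the genes nearest to each member were found by the root mean square difference of centred log2 CPM, where 0 is an identical profile. Yp2 and Yp3 were each other's nearest gene of all tested, at 0.17. Yp1, although it adjoins Yp2, had the hemocyte gene Hml (0.17) and the esterase gene Est-6 (0.18) nearest, with Yp2 in place 21 (0.29) and Yp3 in place 28 (0.31). Est-6 was also among the 4 nearest genes of Yp2 and Yp3, and its means were 193 ± 34.8, 318 ± 35.1 and 240 ± 114 CPM in control, heterozygous and homozygous flies. Nearest to fit were the muscle myosin light chain gene Mlc2 (0.37) and Yp2 (0.39). Nearest to to were Cyp18a1 (0.28), which encodes an ecdysteroid-degrading enzyme, rost (0.29) and the lipophorin gene apolpp (0.34). These profiles share the same libraries, depth and scaling, and are given as a description.

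**Figure D4:**
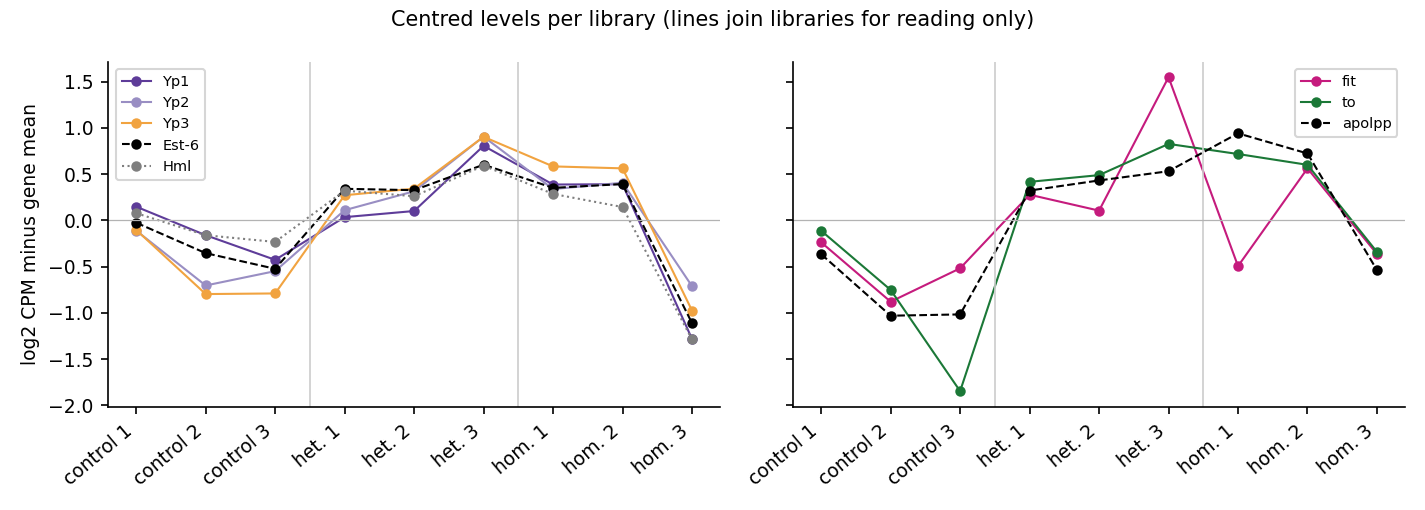
Log2 CPM minus each gene's mean over the 9 libraries, by library; lines join libraries for reading only. Yp1, Yp2 and Yp3 had their lowest points in homozygous replicate 3 (left), and to ran near apolpp (right).

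The list of fat body markers had higher summed levels in both Ime4 groups than in control. It also holds Hml, named above as a hemocyte gene. Much of the sum came from apolpp, with means of 576, 1323 and 1393 CPM in control, heterozygous and homozygous flies. The fat body list (25 genes with counts) summed to 2561 to 3021 CPM in the control libraries, 4043 to 4648 in the heterozygous and 3507 to 5568 in the homozygous ones, with homozygous replicate 3 lowest in its group. Of 18 tested genes of the list, 5 rose and 1 fell in heterozygous and 7 rose and 1 fell in homozygous against control flies, with medians of 0.44 and 0.29, where 9.32% and 19.7% of all tested genes were called. The heterozygous count of risen genes was 3 or 4 in each fit with 1 library left out. Without homozygous replicates 1 and 2 the homozygous count was 4. Sodh1, a sorbitol dehydrogenase gene, rose by 1.30 ± 0.17 and 2.13 ± 0.17 (edgeR adjusted p = 4.18e-04 and 2.40e-06). The lipophorin gene apolpp, whose product carries lipids in the hemolymph, rose by 1.20 ± 0.29 and 1.28 ± 0.29 (edgeR adjusted p = 0.0186 and 0.00689). Its homozygous change was 0.21 without homozygous replicates 1 and 2 (edgeR adjusted p = 0.572), and its heterozygous call was lost without control replicate 2 or 3 or any one heterozygous library. Ugt35B1, a glucuronosyltransferase gene, was the gene of the list that fell in homozygous flies. It fell by 5.14 ± 0.20 (edgeR adjusted p = 1.64e-09). The storage protein gene Lsp2 stood at 23.8 ± 4.55, 6.37 ± 4.68 and 86.7 ± 55.7 CPM in control, heterozygous and homozygous flies. Its homozygous change over control was 1.85 ± 0.45 (edgeR adjusted p = 0.0104), a call that ended without control replicate 1 or homozygous replicate 1. Without homozygous replicates 1 and 2 it was 0.23 (edgeR adjusted p = 0.768). The part of the fat body share, or of the lower neuron and eye sum, in the levels of the 5 genes was not tested, nor was that of the reads outside genes.

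**Figure D5:**
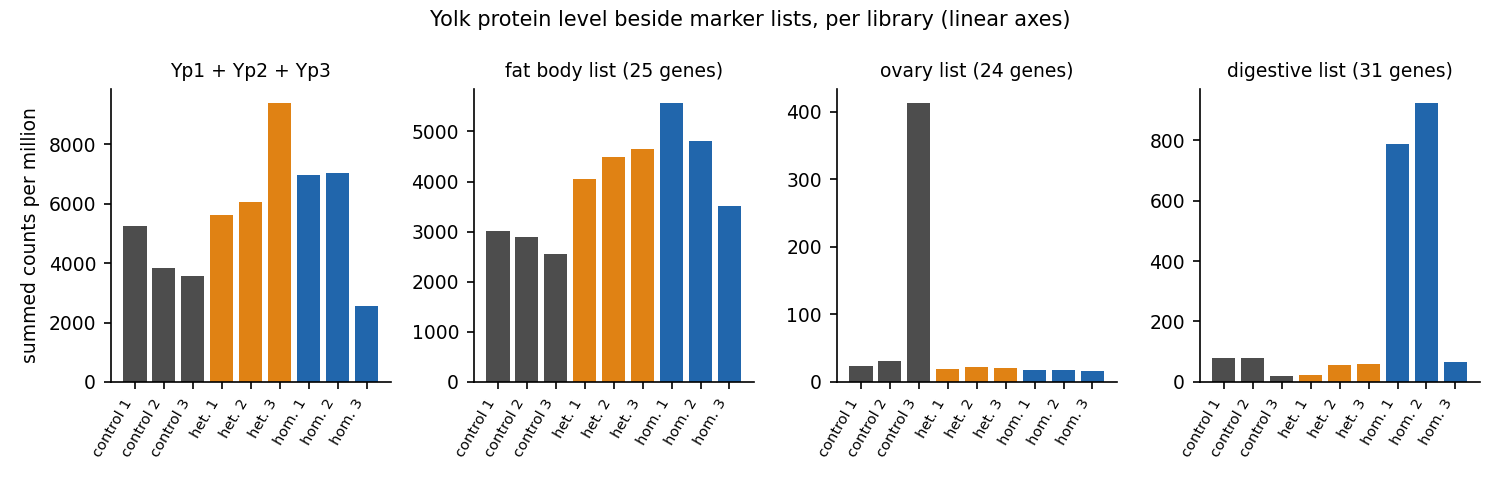
Summed CPM (linear axes) of the 3 yolk protein genes, the fat body list, the ovary list and the digestive list in each library. The ovary list stood out in control replicate 3 (413 CPM) and the digestive list in homozygous replicates 1 and 2 (787 and 923 CPM).

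Other sex-biased head fat body genes differed from one another. Of 5 on that list, to among them, 2 were called in homozygous and 1 in heterozygous against control flies. Of all tested genes, 19.7% and 9.32% were called there. Obp99b, an odorant binding protein gene of that list, rose in homozygous against control flies by 2.68 ± 0.55 (edgeR adjusted p = 0.0041), from 1.54 ± 0.931 to 9.64 ± 5.40 CPM (SD, n = 3), and stood at 0.484 ± 0.179 in heterozygous flies. Without homozygous replicates 1 and 2 its change was 1.16 (edgeR adjusted p = 0.402). Cyp4d21 and the lipase gene sxe2 were called in none of the comparisons, with homozygous changes of -0.78 ± 0.44 and -0.28 ± 0.33 (edgeR adjusted p = 0.24 and 0.597).

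Of 15 tested genes in the list of sex determination genes and other yolk protein regulators, 1 rose and 2 fell in homozygous flies. There 19.7% of all tested genes were called. In heterozygous flies 1 fell, where 9.32% were called, and the medians were -0.05 and -0.11. The one that rose, the GATA factor gene srp, lost its call without control replicate 2 or homozygous replicate 1 or 2, and her, one of the 2 that fell, lost it without any one control or homozygous library. Sxl, the switch gene of female development, was at 975 ± 134, 1086 ± 85.6 and 1216 ± 133 CPM in control, heterozygous and homozygous flies, without a call (edgeR adjusted p = 0.11 for homozygous against control). Its target tra was at 21.7 ± 2.37, 22.3 ± 3.16 and 24.1 ± 1.76 CPM and dsx, the direct regulator of the yolk protein genes, at 28.0 ± 3.77, 25.6 ± 3.50 and 30.1 ± 4.42 CPM. Gene counts do not separate the male and female splice forms of these genes. The nuclear receptor gene ftz-f1, a competence factor for hormone responses of the fat body, fell by 0.82 ± 0.17 in homozygous and by 0.79 ± 0.17 in heterozygous flies (edgeR adjusted p = 0.00425 and 0.0109). The heterozygous call was lost without control replicate 1 or 2 or heterozygous replicate 1 or 3.

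In the list of hormone genes, 3 of 14 rose and 1 fell in homozygous flies and 1 rose in heterozygous flies, where 19.7% and 9.32% of all tested genes were called. Among them jhamt, the gene of the last enzyme of juvenile hormone synthesis, lost both calls in 5 of 6 fits with 1 library left out. The ecdysone receptor gene EcR lost its homozygous call in 3 of 6, without control replicate 1 or homozygous replicate 1 or 2. The juvenile hormone receptor gene gce rose in homozygous flies by 1.44 ± 0.14 over control and by 1.48 ± 0.14 over heterozygotes (edgeR adjusted p = 1.28e-05 and 4.47e-05), while its paralogue Met was not called (-0.39 ± 0.16, edgeR adjusted p = 0.109). Jheh1, a juvenile hormone epoxide hydrolase gene, rose by 0.70 ± 0.16 (edgeR adjusted p = 0.00757), and stood at 0.48 without homozygous replicates 1 and 2 (edgeR adjusted p = 0.155). Kr-h1, a target gene of juvenile hormone signalling, stood at 28.1 ± 5.01, 24.9 ± 4.29 and 28.7 ± 6.72 CPM and was not called.

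Calls among relatives of takeout went in both directions. Of 17 tested genes of the family, 3 rose and 1 fell in homozygous flies and 1 rose and 1 fell in heterozygous flies, takeout included, where 19.7% and 9.32% of all tested genes were called. The genes that rose in homozygous flies were to, Jhbp7 and CG14259, and without control replicate 2 none of the 3 was called. Jhbp5 fell by 2.60 ± 0.37 and by 3.07 ± 0.41 (edgeR adjusted p = 4.05e-04 and 4.84e-04), from 13.97 ± 5.57 CPM in control flies to 2.29 ± 0.537 in homozygotes and 1.61 ± 0.666 in heterozygotes. Jhbp7, the family member next to takeout on the chromosome, had 192 reads in homozygous replicate 3 and 30 to 74 in the other libraries. In that library takeout was at its lowest within the homozygous group. The other flanking relative, CG11854, had 0 to 7 reads and was not tested.

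A list of lipase genes was read beside the yolk proteins, and not all of them are close relatives of these in sequence. Of 13 tested genes, 2 rose and 2 fell in homozygous flies and 1 rose and 1 fell in heterozygous flies. There 19.7% and 9.32% of all tested genes were called. CG4267 rose in homozygous flies by 1.6 ± 0.36 (edgeR adjusted p = 0.0067), and by 0.87 without homozygous replicate 3. One that fell, CG10357, lost its call without control replicate 1 or 3 or homozygous replicate 1 or 2. Hsl, the hormone-sensitive lipase gene, fell by 0.96 ± 0.17 and by 0.85 ± 0.17 (edgeR adjusted p = 0.00187 and 0.00742). CG18302 rose by 1.15 ± 0.24 and 1.01 ± 0.24 (edgeR adjusted p = 0.00426 and 0.0181), and its heterozygous call was lost without control replicate 2 or 3 or heterozygous replicate 1. Without homozygous replicates 1 and 2 its homozygous change was 0.66 (edgeR adjusted p = 0.146).

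In the list of nutrient and satiety genes read beside fit, 4 of 19 rose and 2 fell in homozygous flies and 3 rose and 2 fell in heterozygous flies, where 19.7% and 9.32% of all tested genes were called. Of the heterozygous calls, those of daw and CCHa2 were lost in 5 and 4 of 6 fits with 1 library left out. Without control replicate 3 the homozygous counts were 3 and 0. CCHa2, a nutrient-responsive peptide gene of fat body and gut, rose in homozygous flies by 1.09 ± 0.13 (edgeR adjusted p = 7.45e-05), and its heterozygous level was 26.7 ± 2.36 against 39.3 ± 2.63 CPM in control. Gbp2, a growth-blocking peptide gene, rose by 0.97 ± 0.14 in homozygous and 0.87 ± 0.14 in heterozygous flies (edgeR adjusted p = 3.89e-04 and 0.00193). AkhR, the adipokinetic hormone receptor gene, rose by 0.81 ± 0.18 and 1.10 ± 0.18 (edgeR adjusted p = 0.00615 and 0.0019), and stood at 0.73 in homozygous flies without replicates 1 and 2 (edgeR adjusted p = 0.0562). The insulin-like peptide genes Ilp2, Ilp3 and Ilp5 were called in neither comparison with control, at -0.38 ± 0.16, 0.14 ± 0.21 and -0.05 ± 0.47 in homozygous flies (edgeR adjusted p = 0.118, 0.698 and 0.953).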

How the data were processed

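The authors deposited raw counts of reads for 17558 genes in each of 9 libraries, and 5 further lines hold reads outside genes, ambiguous or not unique. Reads in no gene were 17.2% to 31.7% of these totals and were left out. Per the labels' protocols, RNA was Trizol-extracted, selected on oligo-dT beads and made into directional libraries. The submitters' processing notes name CASAVA 1.8.4, STAR 2.4.0h, HTSeq 0.6.1, DESeq2 1.6.3 and BDGP6, without roles.

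Gene IDs were matched to Ensembl release 115 (17252 of 17558). Counts were scaled by TMM (0.958 to 1.08), filtered by filterByExpr (minimum count 10, total 15), leaving 8972 genes, and tested in edgeR 4.0.16 (R 4.3.3) by the quasi-likelihood test on all 9 libraries, with Benjamini-Hochberg adjustment and a threshold of 0.05. Log2 CPM used a prior count of 2. DESeq2 1.42.0 and limma-voom 3.58.1 were alternatives. The members and the 15 lists (248 genes; 7 symbols unmatched) were chosen with earlier results of these data known; named genes were the members, up to 4 called genes per list with the lowest p, the 4 nearest profiles and chromosome neighbours, and others named for comparison were chosen after their values were seen. On simulated homozygous against control counts for 8972 genes, 21.2%, 64.5% and 94.5% of genes changed 1.5-, 2- and 4-fold were recovered, and 6.51% of calls were false. The main fit did not use replicate numbers as pairs, and whether they mark pairs or a shared batch is not settled by these data. Sequences were not analysed here.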

Additional observations from a re-analysis of the deposited data

How the results depend on the processing

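Without both digestive-transcript libraries (homozygous replicates 1 and 2), the log2 fold changes of Yp1, Yp2, Yp3 and to were -1.18, -0.30, -0.47 and 0.42, and with control replicate 3 also left out, a choice made after seeing the data, -1.28, -0.33, -0.56 and 0.081. In homozygous against heterozygous flies the same fits called Yp1 (-1.67 and -1.64), Yp2 (-1.23 and -1.20) and Yp3 (-1.54 and -1.51) lower, and the second also to (-0.94). They called 802 and 1049 genes in all there, as did 806 without a filter on low counts, against 492. In limma-voom Yp1 in homozygous against control flies was -0.021. The to call was lost when only the 2 groups compared were fitted (1.17), and Yp3 was called without a filter (0.74). The cause of these changes was not tested.

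In heterozygous against control flies the Yp2 call was lost with upper quartile factors (0.91), library totals (0.84), at least 10 CPM in 3 libraries (0.90), DESeq2 (0.92) and limma-voom (0.90). Yp3 was called without a filter (1.06) and with only the 2 groups compared (1.06), as was fit (1.504 and 1.508), and the latter fit called 1370 genes in all against 836. With the replicate number as a block, Yp2 was no longer called (0.94, edgeR adjusted p = 0.0547) and Yp3 was (1.13, edgeR adjusted p = 0.0451), with no other change of a member's call. Same-numbered libraries of different groups did not deviate together: their deviations from the group means correlated at -0.0659 to 0.117, and those of differently numbered ones at -0.114 to 0.114.

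With single libraries left out, the ranges in homozygous against control flies were -0.11 to 0.52 for Yp1, 0.33 to 0.81 for Yp2, 0.49 to 1.10 for Yp3, 0.13 to 0.79 for fit and 0.82 to 1.62 for to. In heterozygous against control flies they were 0.20 to 0.64, 0.66 to 1.11, 0.84 to 1.33, 0.87 to 1.78 and 1.02 to 1.82. In homozygous against heterozygous flies they were -0.60 to 0.029, -0.59 to -0.11, -0.57 to 0.037, -1.38 to -0.28 and -0.42 to 0.074, with the values above 0 from the fit without homozygous replicate 3. Without control replicate 3, the library with ovary transcripts, Yp1, Yp2 and Yp3 stood at 0.36, 0.86 and 0.94 in heterozygous against control flies. In homozygous against control flies they stood at 0.011, 0.47 and 0.62, and none of these was called.

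Genes called then numbered between 1130 and 2477, 362 and 532, and 139 and 1099. For digestive genes, betaTry in homozygous against control flies was -0.56 and -0.75 without the digestive and the digestive and ovary libraries, and Mal-A1 and alphaTry were -0.40 and -0.028 in the latter. The gene fit has no value under the filter of at least 10 CPM, nor in the fit of homozygous and control libraries alone. With 6 to 38 reads, the depth limits what can be said of fit.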

Other observations

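Clock genes, read beside takeout because it is known as an output of the clock, were called in both directions. Of 12 tested genes, 5 rose and 1 fell in homozygous and 3 rose and 1 fell in heterozygous against control flies, where 19.7% and 9.32% of all tested genes were called. Without control replicate 3 the homozygous counts were 4 and 0. The gene tim rose by 0.96 ± 0.14 and 0.75 ± 0.14 as log2 fold changes with their SE (edgeR adjusted p = 3.53e-04 and 0.0041). The clock repressor gene vri rose by 0.73 ± 0.15 and 0.83 ± 0.15 (edgeR adjusted p = 0.00451 and 0.00414). Pdf, the gene of the clock neuron peptide, rose by 0.91 ± 0.21 and 1.15 ± 0.21 (edgeR adjusted p = 0.008 and 0.00404). Without homozygous replicates 1 and 2 its homozygous change was 0.63 (edgeR adjusted p = 0.162). Clk stood at 35.1 ± 0.453 CPM (SD, n = 3) in control heads, against 16.6 ± 2.93 in the heterozygous and 60.6 ± 21.7 in the homozygous group. Homozygous against heterozygous flies gave 1.87 ± 0.23 for Clk (edgeR adjusted p = 4.65e-04). The time of day at which heads were taken is not given in the labels.

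The outer neighbours of the yolk protein genes were called higher in neither comparison with control. CG15312, 130 bp beyond Yp1, fell in homozygous against control flies by 0.44 ± 0.12 (edgeR adjusted p = 0.0167) and stood at 0.04 ± 0.12 in heterozygous flies (edgeR adjusted p = 0.88). The homozygous call did not hold without control replicate 1 or 2. Cht6, next to Yp2, stood at 0.32 ± 0.14 and 0.04 ± 0.15 (edgeR adjusted p = 0.135 and 0.89). Next to Yp3, rdgB fell in homozygous against control flies by 0.50 ± 0.14 (edgeR adjusted p = 0.0206). That call was lost in 4 of 6 fits with 1 library left out. Rtc1, on the other side of Yp3, stood at 0.62 ± 0.36 in homozygous flies (edgeR adjusted p = 0.251).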
